A study of Mus musculus with 4 samples.

Results

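The S100 genes described here are 10 members of the mouse family of small calcium-binding proteins, S100a1, S100a3, S100a4, S100a6, S100a8, S100a9, S100a10, S100a11, S100a13 and S100a16. They were chosen by gene name, as the S100 family without S100b, and not by any measured value. All 10 were found among the 54532 genes of both deposited tables, and 8 were among the 13811 protein-coding genes that reached 10 counts summed over the libraries and could be tested. S100a3 and S100a9 did not reach that number.

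RNA was measured in primary microglia, the resident macrophages of the brain, grown from the cortex of male neonatal CD1 mice in a mixed glial culture. Cells were kept with GM-CSF, and the astrocyte layer was removed by trypsin before the medium was changed to a serum-free one with IL-34, TGFβ2, GM-CSF and cholesterol. The cultures received 1 µM EGCG (epigallocatechin gallate, a flavan-3-ol of green tea) or the same amount of its solvent DMSO (Vehicle) for 24 h. There were 2 biological replicates of each, numbered 1 and 2, and no genetic change in any group. Such cells are cultured neonatal microglia and not adult microglia in the brain. Counts on genes numbered between 33752397 and 36265508 in 3 libraries and 54909854 in EGCG replicate 2. Microglial markers were present throughout, with 8 of 8 marker genes tested and summed levels of 4296 to 5236 CPM (counts scaled to library size with TMM factors) per library. Markers of stromal cells summed to 711 CPM in Vehicle replicate 1 and to between 259 and 340 CPM in the other libraries. In bulk samples, fewer cells of a type and less RNA per cell cannot be told apart. Where 4 values follow each other, they belong to Vehicle and EGCG of replicate 1 and then to Vehicle and EGCG of replicate 2.

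S100 proteins carry a pair of EF-hand loops that bind calcium, and most work as dimers. Calcium opens a surface that grips a target protein. S100A10 is the exception, since it has lost calcium binding and is held in an active form. S100A11, S100A10 and S100A6 bind annexins, the proteins that attach to membranes when calcium rises. S100A4 binds non-muscle myosin, S100A1 is best known for regulating calcium release in muscle, and S100A13 takes part in the release of signal proteins that lack a secretion signal. S100A8 and S100A9 pair as calprotectin, a product of neutrophils and monocytes that is secreted and signals through the receptors TLR4 and RAGE.

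The rule used names only, so the positions of the genes are a property it did not use. All 10 genes lie on chromosome 3 of the mouse genome build GRCm38, in 2 groups. The first holds 8 members within 184.7 kb, from 90511034 to 90695721, and the second holds S100a11 and S100a10 within 44.16 kb, from 93520488 to 93564643. S100a1 and S100a9 are on the minus strand, and S100a13 and S100a11 are on the plus strand. S100a1 (90511034 to 90514392) and S100a13 (90514435 to 90524581) point away from each other and have 42 bases between their outer starts. Printed below are that interval, because a pair with such close starts could be compared gene by gene, and the upstream sequence of S100a11, the most abundant member, and of S100a8 and S100a9, whose products pair while their counts here differed. The sequences are from RefSeq promoters of GRCm38.p6, read 5′ to 3′ on the strand of the gene (the plus strand for the shared interval) and ended at the start of the gene in the deposited tables. Capitals mark a match to a searched motif, which is TGANTCA (AP-1) in S100a11, GAGGAAGT (PU.1, here on the opposite strand) in S100a8 and TTGCNNAA (C/EBP) in S100a9.
Between S100a1 and S100a13, chr3:90514393-90514434: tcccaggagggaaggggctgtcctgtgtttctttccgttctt
S100a11, chr3:93520246-93520487: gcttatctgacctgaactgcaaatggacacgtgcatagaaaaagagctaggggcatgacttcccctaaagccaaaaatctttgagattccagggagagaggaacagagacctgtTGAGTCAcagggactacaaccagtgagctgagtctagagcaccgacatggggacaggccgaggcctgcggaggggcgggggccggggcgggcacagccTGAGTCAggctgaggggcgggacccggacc
S100a8, chr3:90668821-90668977: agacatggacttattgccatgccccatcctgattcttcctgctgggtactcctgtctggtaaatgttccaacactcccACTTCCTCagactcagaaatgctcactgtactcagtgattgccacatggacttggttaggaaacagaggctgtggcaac
S100a9, chr3:90695722-90695971, minus strand: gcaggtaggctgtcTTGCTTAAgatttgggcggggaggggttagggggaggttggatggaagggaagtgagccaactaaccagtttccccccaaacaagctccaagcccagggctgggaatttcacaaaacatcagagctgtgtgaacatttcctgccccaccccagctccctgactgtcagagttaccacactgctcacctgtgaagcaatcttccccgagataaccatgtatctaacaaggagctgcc

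The promoter table held 13 promoters of 300 bases for 9 of the 10 members, and both strands were searched for each motif separately, although matches to AP-1 and to the antioxidant response element can share letters. The AP-1 letters occurred 2 times in the S100a11 promoter, starting 128 and 30 bases before the gene, and once in 1 of the promoters of S100a16, against 7.81% of all 32851 promoters. The C/EBP letters were found in S100a9 alone among these members (10.8% of all promoters), and the PU.1 letters in S100a4 and S100a8 (3.2%). The antioxidant response element, spelled TGACNNNGC, was found in promoters of S100a16 and S100a3 (12.4%), and not in the window of S100a11. TATAAA was found in S100a3, S100a4, S100a8 and S100a9 (13.6%). The windows run past the gene starts of the deposited tables, and the matches in S100a8 and S100a9 lie outside the printed stretches. No searched motif was found in the windows of S100a1, S100a13 and S100a6. A match of letters is a description and not a binding site.

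The members ranged from genes among the most abundant in the cells to genes without a single read. To compare genes with each other, levels are given per length as RPKM (CPM divided by the exonic length of the gene). S100a11 was the highest member in every library, with 674, 788, 125 and 178 RPKM. It ranked 38, 33, 314 and 208 among the 13811 tested genes. S100a1 was the next, with 233, 276, 85.5 and 97.4 RPKM. S100a10 followed with 72.7, 71.0, 22.7 and 25.1 RPKM, and S100a13 with 31.8, 35.4, 22.2 and 23.1 RPKM. These 4 genes kept their order in all 4 libraries. S100a10 and S100a13 were nevertheless close in replicate 2, and the difference between them was smaller than the difference of S100a10 between replicates.

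S100a6 and S100a8 were at similar levels and changed places. S100a6 had 19.8, 18.7, 4.55 and 4.55 RPKM and S100a8 had 16.1, 18.4, 4.13 and 4.99 RPKM, so that S100a8 was above S100a6 in EGCG replicate 2 only. S100a4 and S100a16 were near the limit of detection. S100a4 had 24, 45, 2 and 5 counts (1.25, 2.40, 0.0934 and 0.155 RPKM). S100a16 had 28, 2, 5 and 0 counts. S100a3, best known from hair follicles, had 1, 0, 0 and 5 counts.

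**Figure D1:**
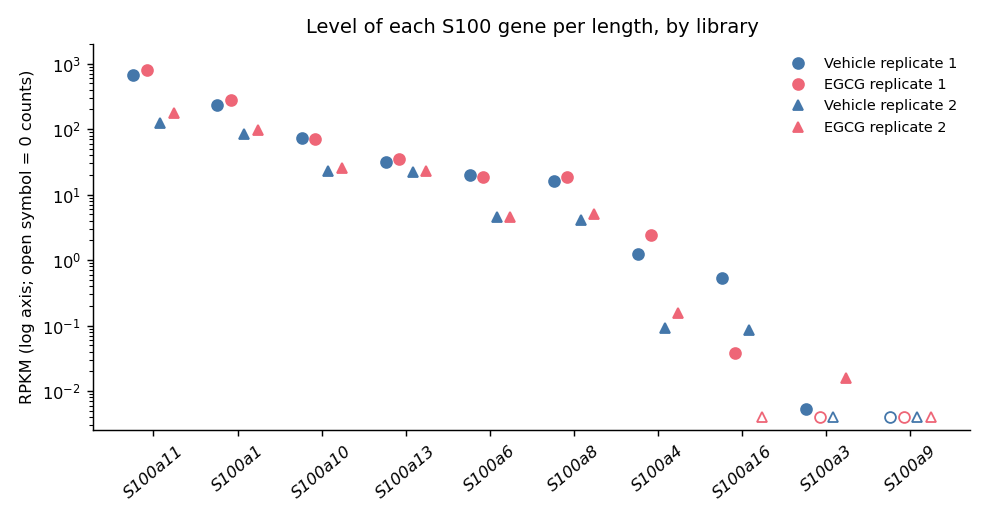
Level of the 10 S100 genes per length (RPKM, log axis) in each of the 4 libraries, ordered by mean level; circles are replicate 1, triangles replicate 2, blue Vehicle and red EGCG, and open symbols at the foot of the axis stand for 0 counts. S100a11 lies highest in every library (674, 788, 125 and 178 RPKM), and S100a9 had 0 counts in all 4. For S100a11, S100a1, S100a10, S100a13, S100a6, S100a8 and S100a4 both circles lie above both triangles. How many of all tested genes have both circles above both triangles was not counted.

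The calprotectin pair was detected on one side only. S100a8 had 366, 410, 105 and 191 counts, with both libraries of replicate 1 above both of replicate 2. S100a9 had 0 counts in all 4 libraries, which allows up to 3 counts in each, or 0.0914, 0.0936, 0.0818 and 0.0544 CPM. Per length, S100a8 was at least 91.8-fold, 102.8-fold, 26.3-fold and 47.9-fold higher than that limit for S100a9. Both genes lie in the first group of members, with the end of S100a8 at 90670035 and the near end of S100a9 at 90692632. Neutrophil markers were at or near 0 as well. Of 8 such markers, 6 had no more than 3 counts in any library, Ly6g, Elane and Retnlg had 0 counts in all 4, and the summed level was 0.29 to 1.50 CPM. Camp had 27, 11, 6 and 9 counts, and Cxcr2 had 16, 33, 2 and 5. Both were lower in replicate 2 (edgeR, adjusted p under 0.1), as 27.6% of all tested genes were. With treatment as a further term Camp did not pass. Whether the reads on S100a8 came from microglia or from other cells was not tested.

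The other S100 genes of the mouse were absent or nearly so. S100b, a marker of astrocytes that lies on chromosome 10, had 1, 0, 2 and 1 counts. S100a14 and S100a7a had 1 count each in 1 library, and S100a2, S100a5, S100g and S100z had 0 counts in all 4. None of these genes reached the number of counts needed for a test.

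S100a11 has near-identical copies. A search of the transcripts found 5 processed pseudogenes with at least 90% identity over 200 or more bases, of which Gm12854 (98.99% identity over 297 bases) had 306, 335, 27 and 64 counts and Gm7665 (98.65% over 297 bases) had 549, 712, 106 and 209 counts. The other 3 had 0 counts. Reads on these copies came to 7.315% of the counts of S100a11, and the counting could have split reads between them. Of the 584 exonic bases of S100a4, 51.71% are shared on the same strand with the gene model Gm42674, which had 0 counts. The counting could have dropped reads on that shared part, which would lower the level of S100a4. No other member had such a copy.

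The main comparison asks how 24 h of EGCG changed the transcripts of these genes. Fitted on treatment alone, none of the 8 tested members passed the test of EGCG against Vehicle. In edgeR's quasi-likelihood test, 0 of 8 had an unadjusted p under 0.05, against 0.116% of all tested genes, and 0 of 8 had an adjusted p under 0.1, against 0% of all genes. That fit leaves the difference between replicates in its spread and called almost no gene, so 0 of 8 does not show an absent effect. DESeq2 also gave 0 of 8 under both rules, with the share of all tested genes not counted. The median log2 fold change of the 8 members was 0.16, against 0.01 over all tested genes. For 7 of the 8, all but S100a16, the fitted log2 difference between replicates was larger than that between treatments. S100a11 had 345, 403, 63.7 and 90.8 CPM, that is 204 ± 199 CPM in Vehicle and 247 ± 221 in EGCG (SD, n = 2 each). The ranges of Vehicle and EGCG overlapped, whereas both libraries of replicate 1 lay far above both of replicate 2. Its log2 fold change was 0.27 (SE, standard error, 1.11; edgeR, unadjusted p = 0.819, adjusted p = 1.00).

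Inside each replicate the EGCG library had the higher level of S100a11. The log2 difference from Vehicle was 0.22 in replicate 1 and 0.51 in replicate 2, the latter with a ratio of 1.42 (95% interval for counting error 1.36 to 1.50) against 1.17 (1.14 to 1.20) in the former. Whether these differences of the replicates are themselves different beyond the spread of cultures was not tested. With the replicate number as a block, the log2 fold change was 0.36 (SE 0.08), with an unadjusted p of 0.00528 in edgeR (adjusted p = 0.995) or 0.000104 in DESeq2 (adjusted p = 0.161). Neither adjusted p passed the threshold of 0.1. Counted together with its 5 copies, an alternative chosen after seeing the data, S100a11 had log2 differences of 0.23 and 0.51 and a blocked edgeR p of 0.00462.

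S100a1 was the other member with a higher EGCG library in both replicates and intervals clear of 1. It had 162, 191, 59.3 and 67.6 CPM. EGCG was above Vehicle in both replicates, with log2 differences of 0.24 and 0.19 and ratios of 1.18 (1.14 to 1.23) and 1.14 (1.08 to 1.20). The intervals cover counting error only, and how many of all tested genes have such intervals was not counted. The groups overlapped, and the log2 fold change in edgeR was 0.23 (SE 0.74) without the block. With the block it was 0.22 (SE 0.05), with an unadjusted p of 0.00685 and an adjusted p of 0.995 in edgeR. Its divergent neighbour S100a13 had 22.8, 25.3, 15.9 and 16.5 CPM. The ratio of EGCG to Vehicle was 1.11 (1.01 to 1.23) in replicate 1 and 1.04 (0.937 to 1.16) in replicate 2, and neither fit gave a p under 0.05 in edgeR (0.736 without and 0.223 with the block).

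S100a16, a broadly expressed member, was the one gene with a p under 0.05 in the other direction in the edgeR fit with the block. It had 28 counts with Vehicle against 2 with EGCG in replicate 1, and 5 against 0 in replicate 2. Both EGCG libraries were below both Vehicle libraries. In replicate 1 Vehicle was 13.7 times EGCG (95% interval for counting error 3.45 to 118), and in replicate 2 the upper bound of the same interval for EGCG over Vehicle was 0.725. The edgeR p was 0.0847 without the block and 0.0108 with it (adjusted p = 0.995), and no fitted fold is given because both EGCG libraries were under 3 counts. Without EGCG replicate 1 or Vehicle replicate 2, which leaves 1 library in a group, S100a16 was still lower with EGCG. Of the 10 stromal markers, 8 also had a lower level with EGCG in replicate 1. Col1a1, a collagen chain, had 3962, 4, 1344 and 2040 counts. Pdgfra, with 122 and 141 counts in replicate 1, and Postn, with 8301 and 8133, did not follow. The summed level was 711, 259, 329 and 340 CPM, and without Postn 458, 4.96, 158 and 175 CPM. The sum of the 8 astrocyte markers was 22.9, 16.9, 14.3 and 15.4 CPM. Their part in the values of S100a16 was not tested.

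In all, the block took the number of members with an unadjusted p under 0.05 in edgeR from 0 to 3 of 8. S100a11 and S100a1 were higher in EGCG, against 2.12% of all tested genes, and S100a16 was lower, against 1.09%. The same 3 genes had a p under 0.05 in the blocked fit of DESeq2, where 1.11% of all genes did. No member had an adjusted p under 0.1 in either tool with the block, where 0.00724% of all genes did in edgeR.

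The annexin-binding members S100a10 and S100a6 passed no test of EGCG. S100a10, the partner of annexin A2, had 88.2, 86.1, 27.5 and 30.4 CPM. EGCG was level with Vehicle in replicate 1 (ratio 0.976, interval 0.926 to 1.03) and above it in replicate 2 (1.11, 1.02 to 1.20), and the blocked edgeR p was 0.487. S100a6, also called calcyclin, had 27.0, 25.5, 6.22 and 6.22 CPM, with ratios of 0.944 (0.858 to 1.04) and 1.00 (0.843 to 1.19) and a blocked edgeR p of 0.629.

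S100a8 and S100a4 lay above Vehicle in both replicates by amounts that did not pass. For S100a8 the CPM values were 11.2, 12.8, 2.86 and 3.46, the ratios 1.15 (0.994 to 1.32) and 1.21 (0.948 to 1.55), and the blocked edgeR p 0.110. For S100a4 the ratios were 1.92 (1.15 to 3.30) and 1.66 (0.272 to 17.4), the latter from 5 counts against 2, with a blocked edgeR p of 0.194. In all, 5 of the 8 tested members were above Vehicle in both replicates, against 29.9% of all tested genes, and 2 were below it in both, S100a16 and S100a6, against 20.6%. The log2 difference of S100a6 was -0.08 in replicate 1 and only -0.000677 in replicate 2.

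**Figure D2:**
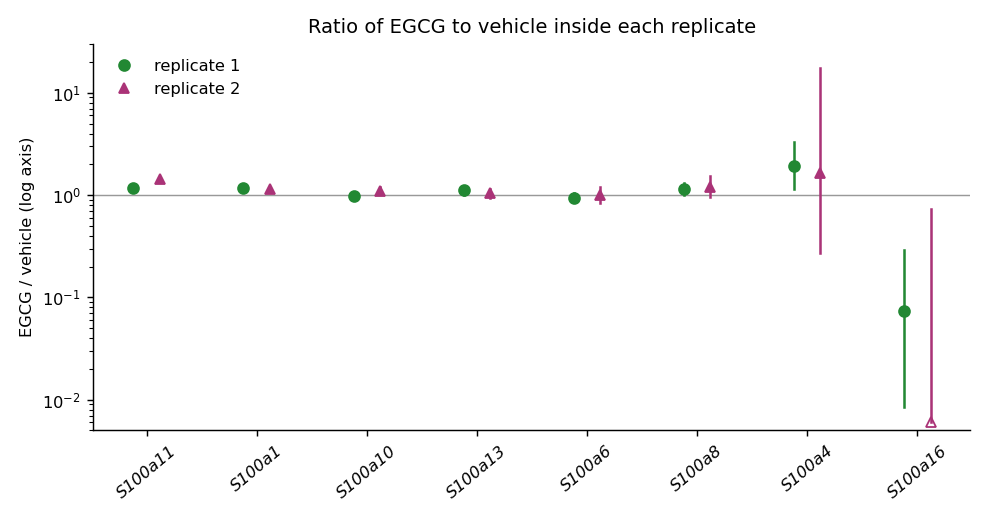
Ratio of EGCG to Vehicle (log axis) inside replicate 1 (circles) and replicate 2 (triangles) for the 8 tested S100 genes, with 95% intervals that cover counting error only; the open triangle at the foot stands for 0 EGCG counts. S100a11 (1.17 and 1.42) and S100a1 (1.18 and 1.14) lie above 1 with narrow intervals in both replicates, and S100a16 lies below 1. How many of all tested genes lie clear of 1 in this way was not counted.

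For the members other than S100a16, the larger difference was between the numbered replicates. The 2 libraries of a number were deposited in 1 table, and culture, library preparation and table cannot be told apart. They are 1 Vehicle and 1 EGCG library, so SDs and p-values here measure the spread between treatments and not between cultures. Of the 8 tested members, 7 were lower in replicate 2 (edgeR, adjusted p under 0.1), against 27.6% of all tested genes, and 0 were higher, against 29.1%. The median log2 fold change of the 8 was -2.00, against -0.00 over all tested genes. S100a11 fell from 374 ± 41.0 CPM in replicate 1 to 77.2 ± 19.1 in replicate 2 (SD, n = 2 each), a log2 fold change of -2.27 (SE 0.16, edgeR, adjusted p = 5.6e-05). S100a6 fell from 26.2 ± 1.06 to 6.22 ± 0.00208 CPM, a log2 fold change of -2.08 (SE 0.09, edgeR, adjusted p = 8.32e-06). In both genes no library of replicate 2 reached the lower library of replicate 1.

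S100a8 had a log2 fold change of -1.91 (SE 0.15). S100a10 had a log2 fold change of -1.59 (SE 0.07) and S100a1 of -1.47 (SE 0.10). S100a4 had 24 and 45 counts in replicate 1 against 2 and 5 in replicate 2, with a log2 fold change of -3.78 (SE 0.64). S100a16 was not called (edgeR, adjusted p = 0.148), since its 28 counts stood in 1 library of replicate 1 and 2 counts in the other. Its log2 fold change ranged from -7.21 to -0.13 when 1 library was left out.

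S100a13 moved least, from 24.1 ± 1.82 to 16.2 ± 0.455 CPM, a log2 fold change of -0.57 (SE 0.08, edgeR, adjusted p = 0.00137). Its start lies 42 bases from that of S100a1, which fell from 177 ± 20.9 to 63.5 ± 5.86 CPM. The RPKM ratio of S100a1 to S100a13 was accordingly 7.32 and 7.78 in replicate 1 and 3.84 and 4.21 in replicate 2. The ratio of S100a11 to S100a10 likewise went from 9.27 and 11.1 to 5.50 and 7.07, with EGCG above Vehicle in each replicate. S100a11 made up 52.5% and 54.0% of the summed CPM of the 10 members in replicate 1 and 36.3% and 42.2% in replicate 2. That sum was 657, 745, 176 and 215 CPM.

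Other genes near the members went in both directions. There were 18 tested genes that are not members and start within 500 kb of one, 17 by the first group and 1, Tchh, by the second. Of these, 10 were higher in replicate 2 and 2 were lower, against 29.1% and 27.6% of all tested genes, and the median log2 fold change was 0.19. Snapin and Chtop, which lie just outside S100a1, had log2 fold changes of 0.21 and 0.02. Tpm3, a tropomyosin gene, had 6349, 5986, 18026 and 27464 counts and was 1.38 higher on the log2 scale. Both lower genes were Tchh, at -2.64, and Npr1, at -1.01. Tchh encodes trichohyalin, a protein of hair follicles whose first part is an S100-like calcium-binding domain, and had 512, 417, 62 and 156 counts. With EGCG, 0 of the 18 had a p under 0.05 in edgeR, with or without the block. Of all tested genes, 0.116% did without the block, and with it 2.12% were higher and 1.09% lower.

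**Figure D3:**
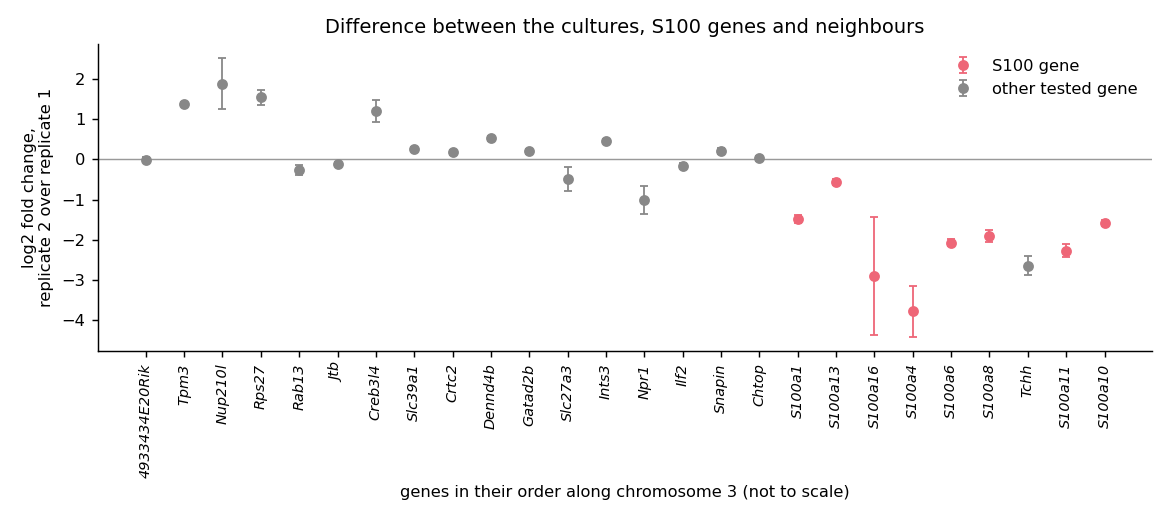
Log2 fold change of replicate 2 over replicate 1 (edgeR, bars are standard errors, n = 2 libraries each) for the 8 tested S100 genes (red) and the 18 tested genes starting within 500 kb of a member (grey), in their order along chromosome 3. The 2 libraries of each replicate are 1 Vehicle and 1 EGCG library. The S100 genes lie between -0.57 and -3.78, and among the other genes only Tchh (-2.64) lies below -2.

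Markers of other cell types and states also differed between the replicates. Summed monocyte markers were 53.0 and 52.5 CPM in replicate 1 and 8.57 and 7.07 in replicate 2. Ly6c2, a marker of inflammatory monocytes, made up most of the sum in replicate 1, with 1319, 1390, 39 and 19 counts (40.2, 43.4, 1.06 and 0.344 CPM). In edgeR, 4 of 5 genes were lower (3 with treatment as a further term), against 27.6% of all tested genes. Vcan was not lower (log2 fold change 0.02), and Plac8 had 13, 0, 0 and 0 counts. Of the cell division genes, 5 of 5 were lower in replicate 2, with sums of 51.5, 49.97, 23.2 and 28.0 CPM. Neutrophil markers summed to 1.43, 1.50, 0.300 and 0.290 CPM. Of the 8 microglial markers, 4 were higher and 4 lower, against 29.1% and 27.6% of all tested genes. The part of these cells or states in the S100 values was not tested.

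Of 28 genes that encode partners, targets or receptors of S100 proteins, 21 were tested. The list was written from general knowledge with earlier results of these data known. With EGCG, 0 of 21 had a p under 0.05 in edgeR without the block. With the block in edgeR 2 were higher (2.12% of all tested genes) and 1 was lower (1.09%), none with an adjusted p under 0.1. In the blocked fit of DESeq2, added after seeing the data, only Anxa1 had a p under 0.05. Anxa1, which encodes an annexin that S100A11 binds, was one of the higher genes. It had 1670, 1878, 431 and 537 CPM, so EGCG was above Vehicle in both replicates, with log2 differences of 0.17 and 0.32. Its unadjusted p with the block was 0.0177 in edgeR (adjusted p = 0.995). Cacybp, which encodes the calcyclin-binding protein that S100A6 binds, had 56.2, 66.1, 45.6 and 49.2 CPM and a blocked p of 0.0416 in edgeR and 0.170 in DESeq2. Dlc1, whose product S100A10 binds, was the lower one, with 38, 14, 183 and 204 counts and a blocked p of 0.0435 in edgeR and 0.105 in DESeq2.

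Between replicates, 9 of the 21 partners were lower in replicate 2 and 5 were higher at an adjusted p under 0.1 in edgeR, against 27.6% and 29.1% of all tested genes. With treatment as a further term, 8 were lower and 5 higher. Anxa1 had a log2 fold change of -1.87, beside -2.27 for S100a11. Anxa2, the partner of S100A10, was at -0.33, with 354, 355, 273 and 292 CPM, while S100a10 was at -1.59. Ahnak, a large scaffold protein bound by the pair of S100A10 and annexin A2, was at -0.81, with 394, 388, 242 and 204 CPM. Anxa11, a further annexin, did not pass, with 25.5, 27.7, 26.4 and 24.7 CPM.

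The receptors came next. Tlr4 had 90.8, 86.2, 99.2 and 101 CPM and was 0.18 higher in replicate 2 on the log2 scale. Ager, which encodes RAGE, had 28, 22, 33 and 36 counts and passed no test. Bsg, which encodes basigin, another receptor for S100A9, had 357, 371, 310 and 306 CPM. Myh9, the non-muscle myosin heavy chain that S100A4 binds, had 562, 542, 568 and 515 CPM and passed no test, beside the 2 and 5 counts of S100a4 in replicate 2.

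**Figure D4:**
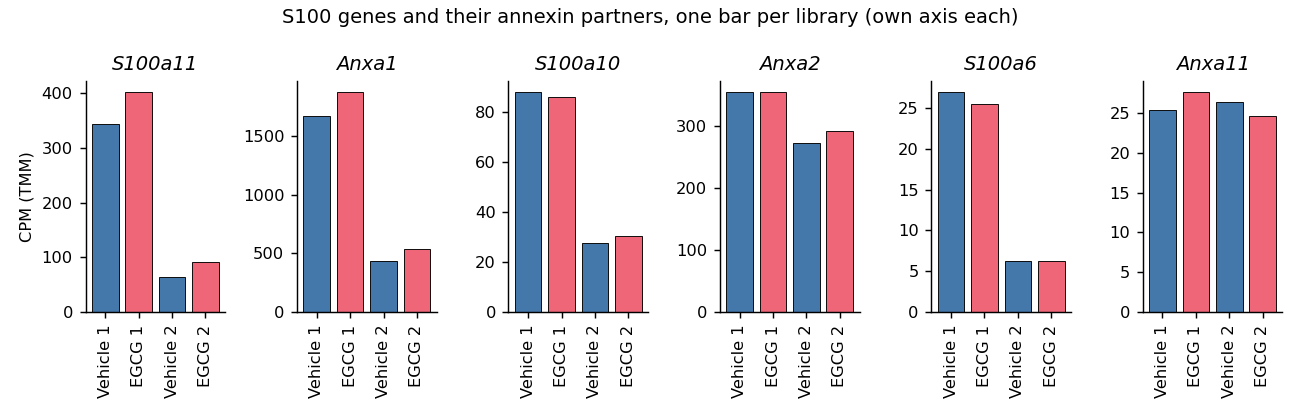
CPM of S100a11 and Anxa1, S100a10 and Anxa2, and S100a6 and Anxa11 in the 4 libraries (1 bar each, blue Vehicle, red EGCG, each gene on its own axis from 0). S100a11 (345, 403, 63.7 and 90.8 CPM) and Anxa1 (1670, 1878, 431 and 537 CPM) are high in replicate 1 and low in replicate 2, while Anxa2 and Anxa11 vary less between replicates.

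The genes whose pattern over the 4 libraries was nearest to that of S100a11 were sought among 5336 tested genes of at least 5 on the log2 CPM scale, by the distance between log2 values centred on each gene's mean. The nearest were Eef1a2 (distance 0.23), Bhlhe40 (0.24), Serpinb9b (0.28), Pla2g7 (0.32) and Zranb3 (0.36). Eef1a2, a translation elongation factor, had 231, 265, 39.0 and 49.6 CPM. They were chosen on these same values, so their likeness to S100a11 between replicates and between treatments follows from the choice. All 5 were lower in replicate 2, with log2 fold changes between -2.06 and -2.58, as S100a11 was. Their log2 difference of EGCG from Vehicle was between 0.35 and 0.43 in replicate 2 for 4 of them and 0.11 for Pla2g7, and in replicate 1 it lay between -0.00 and 0.26.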

How the data were processed

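Raw read counts for each gene were deposited by the authors, in 1 table per replicate with a Vehicle and an EGCG column. Per the labels and methods, directional poly-A libraries were sequenced as paired ends, and HISAT2 was used for alignment to GRCm38.p6. The counting program, the annotation and the handling of strand and of reads matching several genes are not given in the sources used here. Tables were joined on the Ensembl identifier. Loci without one were left out (697 and 329, with 0.1376% and 0.1127% of the counts). Of 54409 identifiers found in the mouse GENCODE release M21, 98.26% had the same position.

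Protein-coding genes that reached 10 counts over the 4 libraries together were fitted in R 4.3.3 with edgeR 4.0.16 (TMM, quasi-likelihood F test, two-sided, Benjamini-Hochberg over 13811 genes). Thresholds were an unadjusted p under 0.05 and an adjusted p under 0.1. Standard errors are the log2 fold change over the root of F. DESeq2 1.42.0, other scalings and filters, leaving out each library and a replicate block were alternatives, and counting S100a11 with its copies was added after seeing the data, as was DESeq2 with the block for the lists. The fits were tested on simulated data with a difference between replicates, where edgeR without the block recovered none of the genes changed by treatment at the adjusted threshold and DESeq2 and the blocked fits recovered most. The planted changes were large, in well-counted genes and with the same dispersion for all genes. That simulation therefore does not cover changes as small as those of most members. The smallest two-sided p of an exact permutation of 2 against 2 libraries is 0.333, so the p-values here rest on the models. Nothing says that replicates came from separate litters, so p-values measure the spread between these samples.

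Same-numbered libraries share a table, as the study's sample sheet gives it. Differences between replicates correlated across genes between Vehicle and EGCG (r = 0.64, 13811 genes, not independent). Chi-square values per gene were 12.4 and 10.3 within replicates and 271 to 289 between them, so no library was a copy of another.

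Log2 CPM used a prior count of 2. The floor of 3 counts and the exact (Clopper-Pearson, 95%) intervals cover counting error only. Copies were found with BLAST 2.17.0. Named genes are all members, the other S100 genes, direct partners and those with p under 0.05 in either EGCG fit, neighbours by the same rule, and the 5 genes nearest S100a11. No neighbour met that rule, and those named were chosen after their values were seen. The members and lists were chosen with earlier results of these data known.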

Additional observations from a re-analysis of the deposited data

Results flagged for a closer look

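For S100a10 the values of the replicates had opposite signs, although the counting interval of the ratio in replicate 1 (0.926 to 1.03) included 1. The log2 difference of EGCG from Vehicle was -0.0346 in replicate 1 and 0.146 in replicate 2, with 1 library for each value, and the difference between the replicates was not tested.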

How the results depend on the processing

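Other scalings, filters, gene classes and DESeq2 without the block left 0 of 8 members with an unadjusted p under 0.05 for EGCG, but the newer dispersion method of edgeR gave 1 (S100a16). The replicate block gave 3 in edgeR, in DESeq2 and with the newer method, and took the partners from 0 to 3 in edgeR but to 1 (Anxa1) in DESeq2. It changed no other call of a member, partner or neighbour. With treatment as a term, 8 members were lower in replicate 2 at an adjusted p under 0.1 in edgeR. The share of all tested genes in that fit was not counted. Leaving out 1 library left 1 library in a group, so of those fits only directions and log2 fold changes are given. S100a16 stayed lower with EGCG and lower in replicate 2 in each of them. The EGCG direction of 7 members turned when 1 library was left out, since the remaining libraries were unbalanced between replicates. Log2 fold changes then ranged from -0.71 to 1.12 for S100a1, from -0.22 to 0.40 for S100a13, from -2.07 to 3.68 for S100a4, from -1.42 to 1.35 for S100a6, from -1.02 to 1.50 for S100a8, from -1.17 to 1.95 for S100a11 and from -0.93 to 1.08 for S100a10. S100a10, at 0.01, also became -0.00113 with RLE factors, -0.0237 with upper-quartile factors, -0.0328 with total counts only, -0.00870 with 10 counts in every library and -0.000528 in DESeq2. With total counts only, the median difference of EGCG from Vehicle over the members was 0.12 in replicate 1 and 0.16 in replicate 2, against 0.18 and 0.17. Of the single-gene values between replicates, 70 kept direction and call under other settings and 1 gained a call. S100a4, S100a16 and S100a3 have too few counts to show moderate changes, and 2 libraries a group limit the rest.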
